A study of Litchi chinensis with 30 samples.

Results

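The dawn clock genes and cyclic DOF factors of litchi were followed through female and male flower development. They were taken by name: every entry of the deposited table whose predicted Swiss-Prot name begins with LHY, REVEILLE, LNK or Cyclic dof factor. This gave 13 of 37234 entries, at 12 gene numbers: 2 entries of LHY that share the number LITCHI026770, 5 REVEILLE entries, 2 LNK entries and 4 cyclic DOF entries. Names are predictions by similarity, so a number after a name says which Arabidopsis protein is closest, not which gene is the counterpart. The members were chosen by name, and the group was selected on the measured stage 3 differences of LHY, LNK3 and LNK1, known to be lower in female than in male flowers at stage 3. The sex difference at stage 3 is therefore given as a description, without a test, as are the steps of the LHY and LNK entries into and out of stage 3. The sex differences of the other stages were tested.

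The study collected whole flowers of the cultivar ‘Feizixiao’, functionally female (F1 to F5) and functionally male (M1 to M5), at 5 stages with 3 replicates each, which makes 30 libraries. Stages 1 to 3 are buds of increasing size, stage 4 flowers are partly open and stage 5 is full bloom. No treatment or mutation separates the groups. A whole flower of either kind holds both organ types, with rudimentary stamens in female and rudimentary pistils in male flowers. According to the study's methods all material was taken within a short stated window of the morning, in triplicate, from differently facing sides of the tree. The study describes the flower types as generally blooming one after another. Neither date nor hour of each library is in the labels used here, so date, hour and group cannot be told apart. The labels do not say whether replicates came from separate plants, so p-values measure only the spread between these samples, which may be technical.

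In Arabidopsis, LHY and its close relative CCA1 are MYB-like repressors that peak around dawn and hold down evening genes such as TOC1. REVEILLE proteins are MYB-like relatives of LHY. RVE8 and its near relatives bind the same promoter element as activators, with LNK proteins as their co-activators on afternoon and evening genes such as PRR5 and TOC1. Cyclic DOF factors repress CONSTANS and FT, the genes that promote flowering in long days, until GIGANTEA and FKF1 remove them.

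All 13 entries passed the filter on low counts, all had at least 5 counts in every library, and all reached a mean of 5 FPKM (fragments scaled by transcript length and library depth) in some group. Library totals lay between 27433038 and 43760285 counts, and log2 counts of libraries of 1 group correlated at 0.922 to 0.961 across entries. Marker lists did not move as a whole with the labelled sex. At stage 5 edgeR called 3 of 6 carpel and ovule entries higher and 2 lower in female flowers, and 3 of 20 anther, tapetum and pollen entries higher and 6 lower. The carpel and ovule entries summed to 193 to 316 FPKM in F5 and 437 to 478 in M5, of which CRABS CLAW, a carpel and nectary gene in Arabidopsis, made up most (203 ± 69 FPKM in F5 and 430 ± 24 in M5; SD, n = 3). The anther, tapetum and pollen entries summed to 307 to 338 FPKM in F5 and 216 to 250 in M5. The ovule gene AGL11 averaged 13 ± 0.5 FPKM in F5 and 0.389 ± 0.191 in M5. In small buds, as the mean of stages 1 and 2, edgeR called none of 6 carpel and ovule and none of 17 green tissue entries, with 0 and 6 at an unadjusted p under 0.05, and called 2 of 20 anther, tapetum and pollen entries higher in female flowers. At stage 5, 13 of the 17 green tissue entries were called higher in female flowers, with summed levels of 933 to 1385 FPKM in F5 and 497 to 541 FPKM in M5. The part of these tissue differences in the open-flower values below was not tested, and in whole flowers fewer cells of a type and less RNA per cell cannot be told apart.

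LHY was far lower in female than in male flowers at every stage. Its main entry, LITCHI026770.m2, had 6.26, 5.77 and 7.05 FPKM in F1, against 61.9, 69.1 and 73.9 in M1. In F2 it had 7.26, 6.64 and 5.01 FPKM, against 64.3, 69.6 and 69.2 in M2. In F3 it had 5.44, 6.54 and 5.81 FPKM, against 64.6, 66.9 and 65.2 in M3. Up to this point the female libraries lay together near one low level and the male libraries near one high level. In F4 the libraries read 5.35, 10.7 and 11.6 FPKM, against 49, 41 and 42.7 in M4, and in F5 they read 4.82, 8.33 and 2.65 FPKM, against 57.4, 69.3 and 67.1 in M5. No female library came near a male one: the highest of 15 female values, in F4, was below the lowest of 15 male values, in M4.

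The fold change was fitted on counts with edgeR's quasi-likelihood test over all 30 libraries, and an entry was called at an adjusted p (FDR) under 0.01 with at least a 2-fold change. LITCHI026770.m2 was 11.2-fold lower in female flowers at stage 1 (log2 -3.49 ± 0.30 SE, FDR 3.01e-07) and 10.8-fold lower at stage 2 (log2 -3.43 ± 0.30, FDR 4.70e-07). It was 5.59-fold lower at stage 4 (log2 -2.48 ± 0.29, FDR 3.35e-07) and 16.9-fold lower at stage 5 (log2 -4.08 ± 0.31, FDR 1.23e-10). The stage 3 value, with no test, was log2 -3.53. Ordered by level, the groups ran M1 at 68.3 ± 6.0 FPKM, M2 at 67.7 ± 3.0, M3 at 65.6 ± 1.2, M5 at 64.6 ± 6.3, M4 at 44.2 ± 4.2, F4 at 9.2 ± 3.4, F1 at 6.36 ± 0.64, F2 at 6.3 ± 1.2, F3 at 5.93 ± 0.56 and F5 at 5.27 ± 2.86 (SD, n = 3). Among male groups the ranges of M1, M2, M3 and M5 overlapped and M4 lay below them, and the female groups all overlapped. The steps from stage 1 to 2 and from stage 4 to 5 did not pass the threshold for this entry in either sex, but without the second F5 library it was lower in F5 than in F4 (log2 -1.30, FDR 0.00442).

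The second LHY entry, LITCHI026770.m1, was weak and moved the same way. It had 0.933, 1.27 and 0.741 FPKM in F1 against 7.72, 5.5 and 2.37 in M1, and 0.0451, 0.258 and 0.0538 FPKM in F2 against 4.84, 3.56 and 5.03 in M2. At stage 3 the F3 libraries read 0.0882, 0.238 and 0.0482 FPKM, against 3.15, 3.07 and 1.75 in M3. In the open flowers it had 0.0276, 1.41 and 0.217 FPKM in F4 against 5.92, 3.17 and 2.89 in M4, and 0.0857, 1.12 and 0.0477 FPKM in F5 against 0.974, 2.23 and 1.69 in M5. Female and male libraries overlapped in FPKM only at stage 5, through the second F5 library. The spread was wide, with 5 to 218 counts among the F4 libraries. The difference was called at stage 2 (log2 -5.21 ± 1.12, FDR 0.00892), a call that was lost in 24 of 30 fits that each left out 1 library, and was not called at stage 1 (FDR 0.117), stage 4 (FDR 0.0139) or stage 5 (FDR 0.0363). This entry held 0.545% to 16.5% of the LHY counts of a female library and 1.5% to 10.1% of those of a male library. With the counts of both entries added, the female to male log2 fold change of stages 1, 2, 4 and 5 was -3.38, -3.48, -2.55 and -4.04, so the sum followed the main entry.

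**Figure D1:**
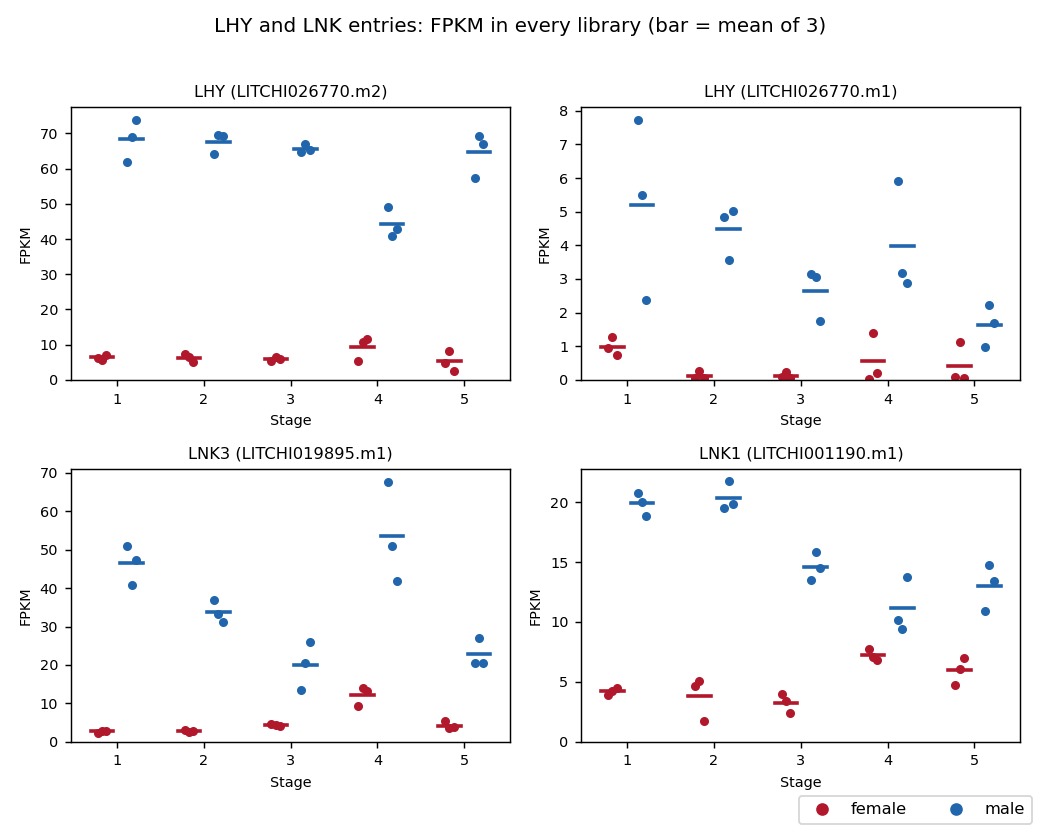
FPKM of the 2 LHY and 2 LNK entries (y axis, linear from 0) in every library at stages 1 to 5 (x axis), female in red left of male in blue, with a bar at the mean of 3 libraries. In LHY (LITCHI026770.m2), LNK3 and LNK1 no female point reaches the male points of its stage. LNK3 has its highest mean at stage 4 in both sexes (12.2 FPKM in F4 and 53.5 FPKM in M4), with the M4 points overlapping those of M1.

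Both LNK entries, whose Arabidopsis namesakes are co-activators that work with RVE8, were lower in female flowers too. LNK3 (LITCHI019895.m1) had 2.35, 2.87 and 2.73 FPKM in F1 against 51.1, 40.8 and 47.4 in M1, and 3.06, 2.6 and 2.86 FPKM in F2 against 36.9, 33.4 and 31.1 in M2. The F3 values were 4.58, 4.38 and 4.18 FPKM, against 13.5, 20.5 and 25.9 in M3. In F4 it had 9.4, 13.9 and 13.3 FPKM against 67.7, 50.9 and 41.8 in M4, and in F5 5.29, 3.6 and 3.71 FPKM against 20.6, 27 and 20.6 in M5. Female and male libraries were separate at all 5 stages, and stage 4 had the highest mean in both sexes. In male flowers M4 (41.8 to 67.7 FPKM) overlapped M1 (40.8 to 51.1 FPKM), and these groups were not tested against each other. LNK3 was 18.2-fold lower in female flowers at stage 1 (log2 -4.19 ± 0.24, FDR 5.21e-10), the largest change of any member at that stage. The log2 fold change of stage 2 was -3.57 ± 0.23 (FDR 7.94e-09), that of stage 4 was -2.35 ± 0.22 (FDR 1.55e-08) and that of stage 5 was -2.90 ± 0.23 (FDR 1.94e-10), and stage 3 read -2.25 with no test.

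LNK1 (LITCHI001190.m1) had 3.92, 4.26 and 4.52 FPKM in F1 against 20.8, 20 and 18.9 in M1, and 4.61, 5.07 and 1.74 FPKM in F2 against 19.5, 21.8 and 19.9 in M2. In F3 it had 3.98, 3.4 and 2.42 FPKM, against 13.5, 15.8 and 14.5 in M3. Open F4 flowers had 7.74, 7.05 and 6.85 FPKM against 10.2, 9.43 and 13.7 in M4, and in F5 4.73, 6.11 and 7.03 FPKM against 10.9, 14.8 and 13.4 in M5. The groups did not overlap at any stage, but at stage 4 the gap between the sexes was narrow. LNK1 was called at stage 1 (log2 -2.29 ± 0.25, FDR 6.87e-06), stage 2 (log2 -2.43 ± 0.25, FDR 5.59e-06) and stage 5 (log2 -1.61 ± 0.25, FDR 5.68e-06). At stage 4 it passed the FDR threshold at less than a 2-fold change (log2 -0.84 ± 0.24, FDR 0.00619). At stage 3 its log2 fold change was -2.22.

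The REVEILLE entries fell into those that were called in small buds and those that were not. RVE8 (LITCHI018530.m1), an activator of afternoon genes in Arabidopsis, had 10.1, 10.9 and 10.8 FPKM in F1 against 30.9, 25.9 and 26 in M1, and 8.98, 11.2 and 11.2 FPKM in F2 against 27.3, 24.5 and 24.4 in M2. At stage 3 the F3 libraries read 17.6, 17.1 and 17.5 FPKM, against 19.8, 21.9 and 21 in M3. In F4 it had 14.1, 22.7 and 30.1 FPKM against 34.3, 32.3 and 28.4 in M4, and in F5 19.8, 13.7 and 12.2 FPKM against 29.1, 24 and 24.4 in M5. The sexes were far apart in small buds and close at stage 3, and in FPKM 1 F4 library reached into the range of M4. RVE8 was called at stage 1 (log2 -1.44 ± 0.19, FDR 7.59e-05), stage 2 (log2 -1.29 ± 0.19, FDR 0.000437) and stage 5 (log2 -1.22 ± 0.19, FDR 8.53e-06), and had log2 -0.72 ± 0.19 at stage 4 (FDR 0.00329).

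A pair of entries carried the name REVEILLE 1, in Arabidopsis a MYB-like factor tied to auxin levels and growth. LITCHI022986.m1 had 8.69, 10.1 and 9.39 FPKM in F1 against 21.4, 22.5 and 20.3 in M1, and 7.72, 7.81 and 5.19 FPKM in F2 against 17.7, 15.6 and 16.6 in M2. The F3 values were 8.78, 10.4 and 9.28 FPKM, against 10.8, 11.2 and 10.3 in M3. Open F4 flowers had 7.13, 12.8 and 14.7 FPKM against 25, 18.4 and 13.8 in M4, and in F5 8.98, 6.9 and 4.69 FPKM against 10.3, 8.96 and 9.34 in M5. The clear gap of stages 1 and 2 was gone at stage 3, and in FPKM the open-flower groups overlapped. It was called at stage 1 (log2 -1.25 ± 0.23, FDR 0.00181) and stage 2 (log2 -1.28 ± 0.24, FDR 0.00275), and passed the FDR threshold below a 2-fold change at stage 4 (log2 -0.94 ± 0.23, FDR 0.00200) and stage 5 (log2 -0.93 ± 0.23, FDR 0.00149). Leaving out the first or the third F1 library ended the stage 1 call (FDR 0.0147 and 0.0122), and the stage 2 call was lost without the second F2 library (log2 -1.34) or any 1 of the 3 M2 libraries (log2 -1.23, -1.30 and -1.28).

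The other REVEILLE 1 entry, LITCHI008053.m1, had 7.36, 8.07 and 6.58 FPKM in F1 against 21.4, 19.5 and 19.2 in M1, and 7.83, 5.49 and 5.72 FPKM in F2 against 14.1, 12.2 and 13.6 in M2. In F3 it had 7.19, 7.07 and 5.98 FPKM, against 3.12, 5.16 and 4.63 in M3. At stage 3 the order of the sexes was turned round, with all F3 libraries above all M3 libraries. In F4 it had 13, 23.9 and 28.8 FPKM against 35.4, 22.1 and 9.13 in M4, and in F5 26.3, 12 and 8.34 FPKM against 8.61, 11.3 and 10.2 in M5. The open-flower groups overlapped over wide ranges. No single stage passed the threshold (stage 1 log2 -1.52 ± 0.39, FDR 0.0172), while the mean over stages 1 and 2 did (log2 -1.29 ± 0.27, FDR 0.00215).

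REVEILLE 6 and REVEILLE 3, close relatives of RVE8, varied least among the REVEILLE entries. REVEILLE 6 (LITCHI009435.m1) stayed between 15.1 ± 1.4 FPKM in F5 and 21.2 ± 0.7 FPKM in M4 (SD, n = 3). Its female to male log2 values were -0.21 ± 0.13 and -0.16 ± 0.13 at stages 1 and 2. At stages 4 and 5 they were -0.55 ± 0.13 (FDR 0.00137) and -0.88 ± 0.13 (FDR 3.84e-06), past the FDR threshold but short of a 2-fold change. REVEILLE 3 (LITCHI025771.m1) averaged 8.54 ± 1.74 FPKM in F4, its lowest group, and 18.9 ± 1.9 FPKM in M1, its highest. Its log2 values were -0.57 ± 0.15 (FDR 0.0218), -0.26 ± 0.15 (FDR 0.377), -0.82 ± 0.15 (FDR 0.000124) and -0.98 ± 0.15 (FDR 7.70e-06) at stages 1, 2, 4 and 5. The last of these sat just under the 2-fold limit and passed it in 22 of 30 fits that each left out 1 library. As the mean of stages 1 and 2, REVEILLE 3 lay at log2 -0.45 to -0.35 over these fits, short of a 2-fold change. All its female libraries were nonetheless below all its male libraries at stages 1 and 2.

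**Figure D2:**
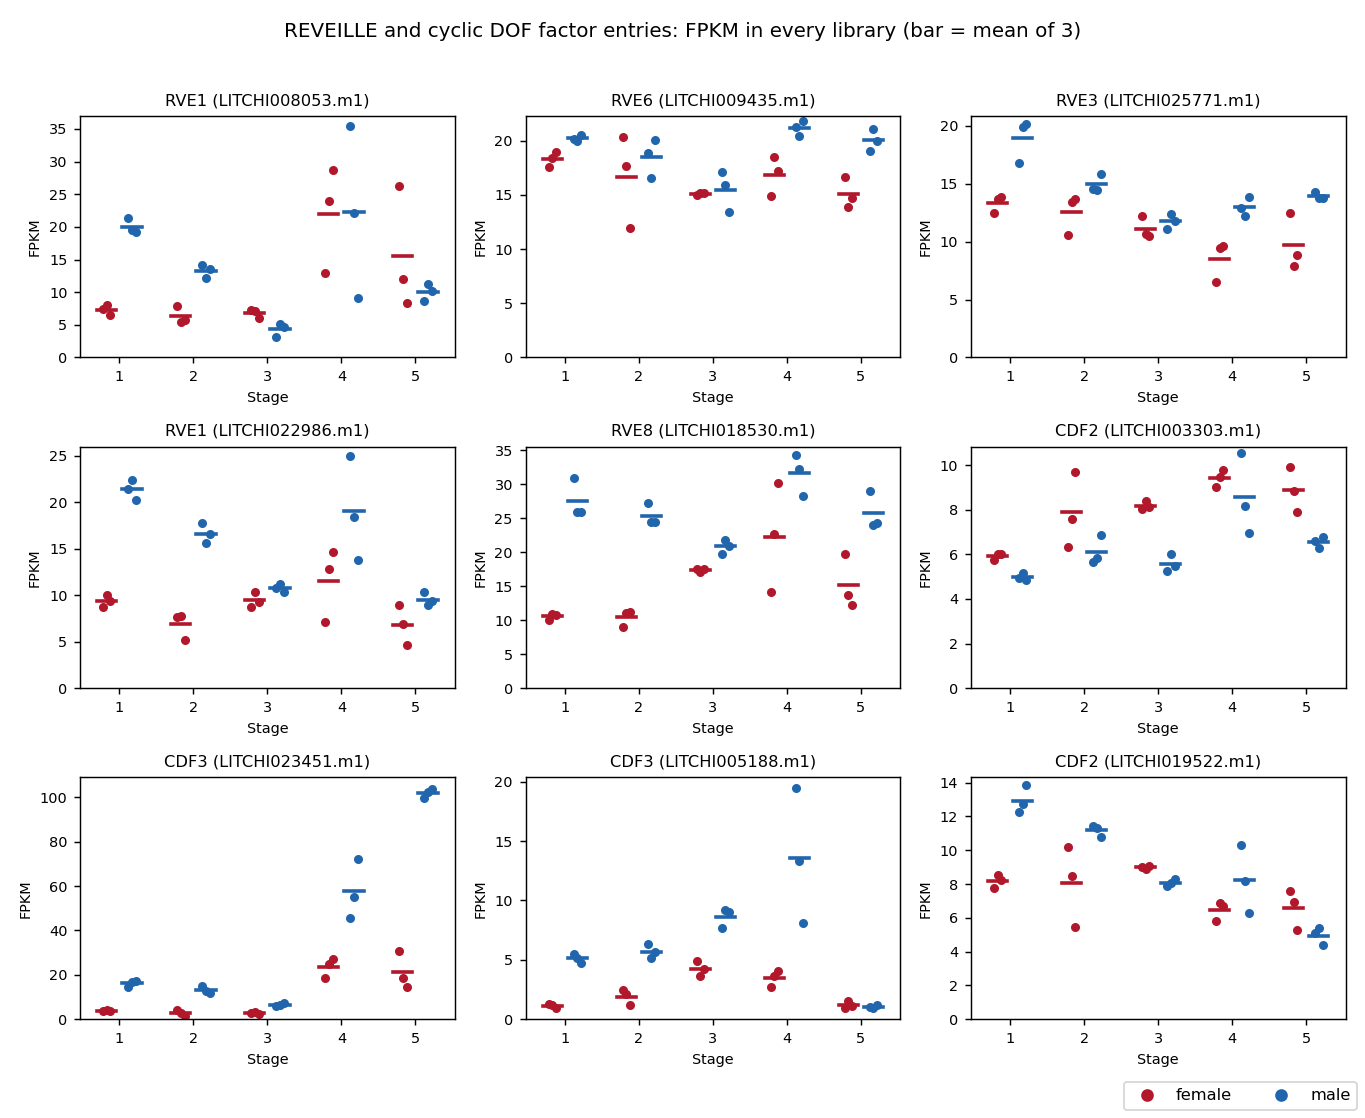
FPKM of the 5 REVEILLE and 4 cyclic DOF entries (y axis, linear from 0, its own scale in each panel) in every library at stages 1 to 5 (x axis), female in red left of male in blue, with a bar at the mean of 3 libraries. CDF3 (LITCHI023451.m1) is highest at full bloom in male flowers (102 FPKM in M5), and CDF3 (LITCHI005188.m1) stands near 1 FPKM at full bloom in both sexes (1.21 FPKM in F5 and 1.04 FPKM in M5).

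Among the cyclic DOF factors, repressors of CONSTANS in Arabidopsis, the entries named Cyclic dof factor 3 differed between the sexes and those named Cyclic dof factor 2 did not pass the test. LITCHI023451.m1 (Cyclic dof factor 3) had 3.81, 3.88 and 3.49 FPKM in F1 against 14.6, 16.6 and 17 in M1, and 4.16, 2.55 and 1.56 FPKM in F2 against 15, 12.5 and 11.6 in M2. At stage 3 the F3 libraries read 2.91, 3.3 and 2.42 FPKM, against 5.87, 6.44 and 7.18 in M3. Open F4 flowers had 18.6, 24.9 and 27.1 FPKM against 45.5, 55 and 72.4 in M4, and in F5 30.8, 18.5 and 14.6 FPKM against 99.9, 103 and 104 in M5. Every female group lay below its male group, and both sexes stood much higher in open flowers than in buds. The entry was called lower in female flowers at stage 1 (log2 -2.17 ± 0.28, FDR 4.84e-05), stage 2 (log2 -2.24 ± 0.28, FDR 7.14e-05), stage 4 (log2 -1.51 ± 0.27, FDR 7.88e-05) and stage 5 (log2 -2.72 ± 0.28, FDR 1.80e-08).

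LITCHI005188.m1 (Cyclic dof factor 3) followed another course. It had 1.24, 1.16 and 0.909 FPKM in F1 against 5.5, 5.14 and 4.74 in M1, and 2.43, 2.12 and 1.16 FPKM in F2 against 6.3, 5.12 and 5.64 in M2. The F3 values were 4.87, 3.62 and 4.24 FPKM, against 7.65, 9.17 and 9.05 in M3. In F4 it had 2.67, 3.59 and 4.05 FPKM against 19.4, 13.3 and 8.1 in M4, and in F5 0.961, 1.56 and 1.1 FPKM against 0.987, 0.943 and 1.2 in M5. Female libraries were below male libraries up to stage 4 and overlapped them at full bloom. It was called at stage 1 (log2 -2.27 ± 0.27, FDR 2.11e-05), stage 2 (log2 -1.58 ± 0.26, FDR 0.00116) and stage 4 (log2 -2.20 ± 0.27, FDR 6.32e-07), with log2 -0.27 ± 0.26 at stage 5 (FDR 0.405).

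The 2 Cyclic dof factor 2 entries changed little between the sexes. LITCHI003303.m1 averaged 5.93 ± 0.18 FPKM in F1 and 4.98 ± 0.16 in M1, and 9.41 ± 0.39 in F4 and 8.55 ± 1.80 in M4 (SD, n = 3). Its log2 values at stages 1, 2, 4 and 5 lay between -0.08 ± 0.14 and 0.36 ± 0.14, with FDR from 0.142 to 0.877. LITCHI019522.m1 averaged 8.18 ± 0.39 FPKM in F1 and 12.9 ± 0.8 in M1, and 6.59 ± 1.2 in F5 and 4.95 ± 0.52 in M5. Its log2 values were -0.73 ± 0.18 (FDR 0.0122) and -0.05 ± 0.18 (FDR 0.822) at stages 1 and 5, and its mean over stages 1 and 2 was log2 -0.61 ± 0.12 (FDR 0.00163). Neither entry reached a 2-fold change between the sexes at any tested stage. In FPKM, which are not scaled for the shift between open female and male flowers given below, LITCHI003303.m1 read higher in F5 (8.89 ± 1.00) than in M5 (6.56 ± 0.25).

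Over the members, every call at the 4 tested stages was lower in female flowers. At stage 1, 7 of 13 entries were called lower in female flowers, where 0.923% of the 27854 entries tested were called lower and 0.402% higher, and at stage 2 it was 8 of 13, where 0.341% were called lower and 0.194% higher. At stage 4, 4 of 13 were called lower, where 7.4% of all entries were lower and 9.55% higher, and at stage 5 it was 5 of 13, where 11.6% were lower and 17.6% higher. None was called higher at these 4 stages by edgeR or by DESeq2, and the only one higher at an unadjusted p under 0.05 was LITCHI003303.m1 at stage 2. A further 5 members at stage 4 and 3 at stage 5 were lower past the FDR threshold with less than a 2-fold change. The median log2 of the members was -1.52, -1.29, -0.84 and -0.98 at stages 1, 2, 4 and 5, while that of all entries lay between -0.02 and 0.03. Since the members were put together with some of these differences known, the shares describe them and are no test of the list. When only the 6 libraries of stage 2 were fitted, 2 members stayed past the threshold in place of 8.

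All 3 female libraries lay below all 3 male libraries, on counts scaled by TMM (edgeR's library scaling factors), for 12, 11, 11 and 9 of 13 members at stages 1, 2, 4 and 5. The shares of all entries were 18.9%, 11.3%, 29.5% and 30.6%. At stage 3 it was 8 of 13, where 19.0% were, but these take in both LHY entries, LNK3 and LNK1. The group was selected on stage 3 values of LHY, LNK3 and LNK1, so this count is a description only. For 8 of 13 members all female libraries lay below all male libraries at each of the 4 tested stages, against 2.65% of all entries. Above the male libraries stood 1 member at stage 1 (LITCHI003303.m1, where 17.6% of entries did) and none at stages 2, 4 and 5 (9.19%, 27.9% and 32.2% of entries). At stage 3 it was 3 members, LITCHI008053.m1, LITCHI003303.m1 and LITCHI019522.m1, where 15.8% of entries did. FPKM are not scaled by TMM, and the scaling lowered female against male log2 values by a median of 0.21 at stage 4 and 0.47 at stage 5, so fold changes of open flowers are relative to that shift.

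**Figure D3:**
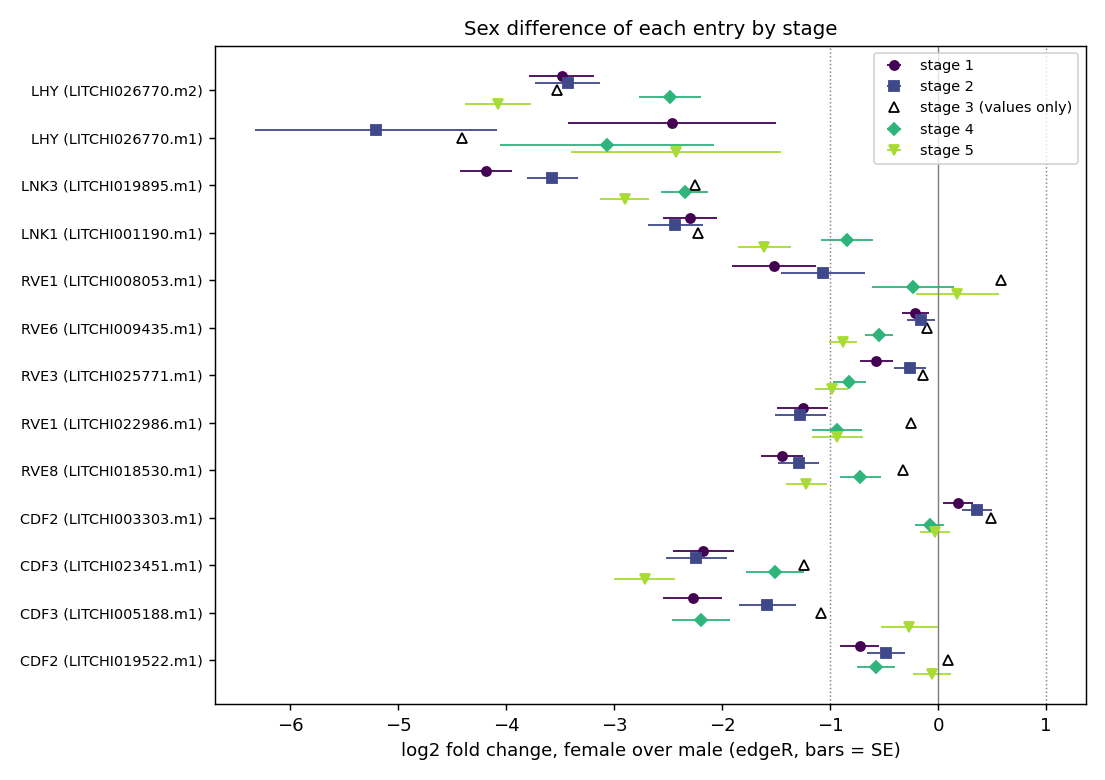
Female over male log2 fold change (x axis) of the 13 entries (y axis) at each stage, with approximate SE bars from edgeR and dotted lines at a 2-fold change. Stage 3 is drawn open and without error. LHY, LNK3 and CDF3 (LITCHI023451.m1) lie left of the 2-fold line at every stage, and CDF2 (LITCHI003303.m1) lies between -0.08 and 0.49.

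Whether the sex difference changed as flowers opened was tested as an interaction, the female to male log2 fold change averaged over stages 4 and 5 minus that over stages 1 and 2. In small buds 9 of 13 members were called lower in female flowers, where 1.09% of entries were, and in open flowers 6 of 13, where 10.8% were. The interaction was called for 3 of 13, all positive, so with a smaller deficit in open flowers, where 13.1% of all entries were called positive and 7.68% negative. LNK3 had log2 -2.62 ± 0.16 in open flowers and -3.88 ± 0.17 in small buds, a difference of 1.26 ± 0.21 (FDR 3.23e-05). LNK1 had -1.23 ± 0.17 and -2.36 ± 0.18, a difference of 1.14 ± 0.24 (FDR 0.000390), which fell under 2-fold without the third F2 library (0.94). LITCHI008053.m1 (REVEILLE 1) had -0.03 ± 0.27 and -1.29 ± 0.27, a difference of 1.27 ± 0.38 (FDR 0.00803), which lost its call in 22 of 30 fits that each left out 1 library, down to 0.90 without the first F5 library. REVEILLE 6 (-0.53 ± 0.13, FDR 0.00150) and REVEILLE 3 (-0.49 ± 0.15, FDR 0.00995) passed the FDR threshold in the other direction with less than a 2-fold change. Among the other clock genes, LITCHI026785.m1 (APRR5) had a difference of 1.28 ± 0.22 (FDR 4.18e-05) and LITCHI020370.m11 (APRR2) one of 1.01 ± 0.14 (FDR 2.09e-06). The difference was 0.18 ± 0.27 for LHY (FDR 0.627) and 0.09 ± 0.27 for LITCHI023451.m1 (FDR 0.824).

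**Figure D4:**
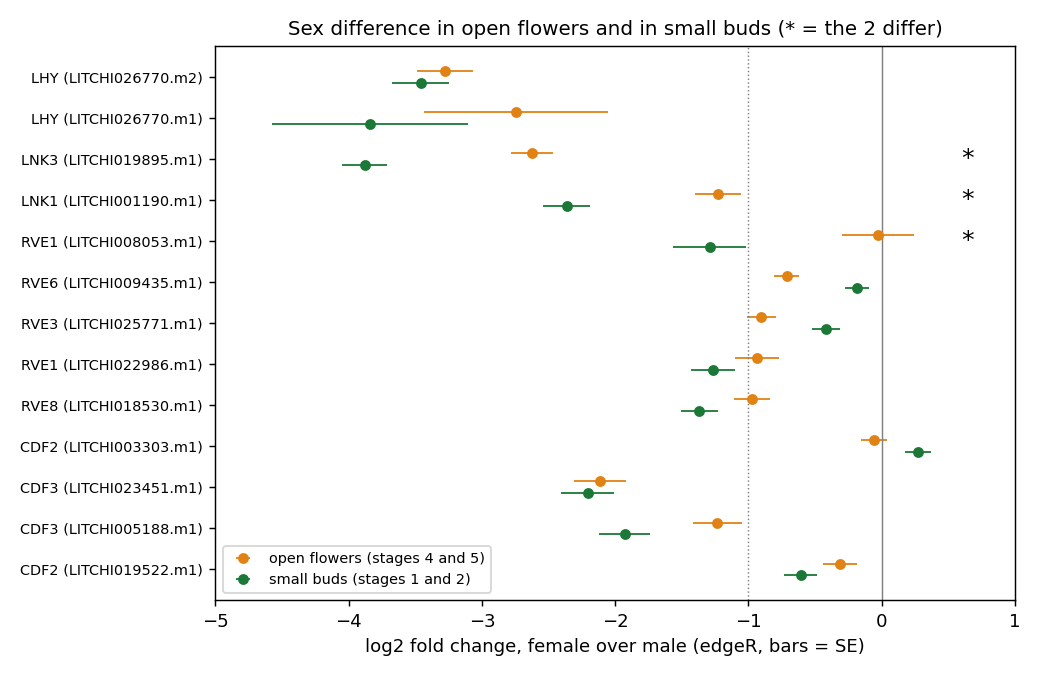
Female over male log2 fold change (x axis) of the 13 entries (y axis), averaged over open flowers (orange) and over small buds (green), with approximate SE bars and a dotted line at a 2-fold decrease. Stars mark LNK3, LNK1 and RVE1 (LITCHI008053.m1), whose values differ between the 2 averages, by 1.26, 1.14 and 1.27, and the star of RVE1 is the least stable.

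Between stage 3 and stage 4, when flowers opened, several members stood higher at stage 4 in both sexes. LITCHI023451.m1 (Cyclic dof factor 3) was 7.92-fold higher at stage 4 than at stage 3 in female flowers (log2 2.99 ± 0.29, FDR 5.14e-08) and 9.56-fold higher in male flowers (log2 3.26 ± 0.29, FDR 3.84e-09). LITCHI008053.m1 (REVEILLE 1) was likewise higher at stage 4 in both, at log2 1.65 ± 0.39 in female and 2.47 ± 0.40 in male flowers (FDR 0.00202 and 2.21e-05). In female flowers this call was lost without the third F3 (log2 1.59) or the third F4 library (log2 1.40). These were the 2 of 9 REVEILLE and cyclic DOF entries called higher at this step in either sex, where 4.56% of all entries were in female and 7.73% in male flowers. None of the 9 was called lower by edgeR or DESeq2, where 7.51% of entries were in female and 12.6% in male flowers. Without the third M4 library LITCHI022986.m1 (log2 1.17) and LITCHI005188.m1 (log2 1.09) were past the threshold in male flowers too. LNK3 and LNK1 had been chosen on their stage 3 values, so their values at this step carry no test: LNK3 had log2 1.43 in female and 1.52 in male flowers, and LNK1 had 1.10 in female flowers.

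From stage 4 to full bloom the paths of the cyclic DOF factors parted. In male flowers LITCHI005188.m1 (Cyclic dof factor 3) was 10.9-fold lower at stage 5 than at stage 4 (log2 -3.45 ± 0.28, FDR 4.88e-09), while LITCHI023451.m1 (Cyclic dof factor 3) was 2.10-fold higher (log2 1.07 ± 0.27, FDR 0.00298). These were the only members called at this step in male flowers, where 7.0% of entries were called lower and 3.63% higher. The call of LITCHI023451.m1 was lost without TMM scaling (log2 0.83), and on leaving out the first (log2 0.91) or the second M4 library (log2 1.04) or the second or the third M5 library (log2 1.05 each). Without TMM scaling LNK3 was called lower in its place (log2 -1.23), and without the third M4 library 4 members were past the threshold. In female flowers LITCHI005188.m1 (log2 -1.52 ± 0.26, FDR 0.00107) and LNK3 (log2 -1.54 ± 0.22, FDR 0.000140) were lower at stage 5, where 0.467% of entries were. Neither stayed past the threshold when only the 6 libraries of this step were fitted.

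The bud stages held few calls. No member was called from stage 1 to stage 2 in female flowers, where 3.0% of entries were called, or in male flowers, where 2.66% were, by edgeR or DESeq2, and 3 and 2 members had an unadjusted p under 0.05. From stage 2 to stage 3, LITCHI005188.m1 was higher in female flowers (log2 1.11 ± 0.26, FDR 0.00848, 1.53% of entries called higher) and LITCHI008053.m1 lower in male flowers (log2 -1.62 ± 0.39, FDR 0.00469, 2.47% called lower). Both calls were lost on leaving out single libraries. The male one was lost without any 1 of the 6 libraries compared. The female one was also lost without single libraries outside the comparison, such as the first M1 library (FDR 0.0106). When only the F2 and F3 libraries were fitted, its FDR was 0.149. At stage 5 against stage 1, LITCHI023451.m1 was higher in female (log2 2.45 ± 0.28, FDR 3.84e-07, 7.44% of entries called higher) and male flowers (log2 2.99 ± 0.28, FDR 3.10e-09, 15.3% called higher). In male flowers LITCHI005188.m1 (log2 -1.96 ± 0.27, FDR 1.02e-06) and LITCHI019522.m1 (log2 -1.06 ± 0.18, FDR 1.62e-05) were lower at stage 5, where 21.5% of entries were. The call of LITCHI019522.m1 was lost with DESeq2 (log2 -0.99) and in 6 of 30 fits that each left out 1 library.

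Other clock genes were taken by the start of the predicted name, so some, such as APRR2, may not be clock components. The list held 29 entries, of which 25 were tested. On the mean of stages 1 and 2, edgeR called 2 of the 25 lower and 1 higher in female flowers. A further 4 passed the FDR threshold with less than a 2-fold change, and 14 had an unadjusted p under 0.05. At stage 1, 1 was called, lower in female flowers, where 0.923% of all entries were called lower. At stage 2, 2 were lower and 1 higher, where 0.341% and 0.194% of all entries were. The lower ones were both named APRR5, in Arabidopsis the pseudo-response regulator PRR5 that represses LHY and CCA1 later in the day. LITCHI026785.m1 (APRR5) averaged 6.89 ± 0.21 FPKM in F1 and 29.7 ± 0.8 in M1, and 9.28 ± 2.98 in F5 and 17.6 ± 1.9 in M5 (SD, n = 3). Its log2 fold change for stage 1 was -2.17 ± 0.23 (FDR 4.37e-06), for stage 2 -2.36 ± 0.23 (FDR 2.78e-06), for stage 4 -0.56 ± 0.22 (FDR 0.0430) and for stage 5 -1.41 ± 0.23 (FDR 1.05e-05). LITCHI012124.m1 (APRR5) was called at stage 2 (log2 -1.16 ± 0.24, FDR 0.00648) and stage 5 (log2 -2.35 ± 0.25, FDR 2.13e-08). The entry higher at stage 2 was LITCHI024781.m8 (PRR37; log2 1.93 ± 0.40, FDR 0.00741), whose F2 libraries ran from 7.85 to 33.1 FPKM, against 4.16 to 4.44 FPKM in M2.

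Among the entries not called in small buds were APRR1 and GIGANTEA, named here after their values were seen. LITCHI023430.m1 (APRR1, the TOC1 of Arabidopsis) averaged 60.5 ± 3.0 FPKM in F1 and 49.9 ± 1.9 in M1, with log2 0.21 ± 0.10 at stage 1 (FDR 0.193) and 0.15 ± 0.10 at stage 2 (FDR 0.436). LITCHI011520.m1 (GIGANTEA) averaged 119 ± 5 FPKM in F1 and 110 ± 3 in M1, with log2 0.05 ± 0.12 and -0.03 ± 0.12 at stages 1 and 2 (FDR 0.859 and 0.946). In open flowers 1 of the 25 was called at stage 4, where 7.4% of all entries were called lower. It was an EARLY FLOWERING 3 entry (LITCHI017245.m1), listed at 0 in all F4 libraries and at 0.137 ± 0.099 FPKM in M4. At stage 5, 3 were called, where 11.6% of all entries were called lower. These were both APRR5 entries and LITCHI025136.m1 (EARLY FLOWERING 4, log2 -1.08 ± 0.17, FDR 1.12e-05). All these calls were lower in female flowers.

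**Figure D5:**
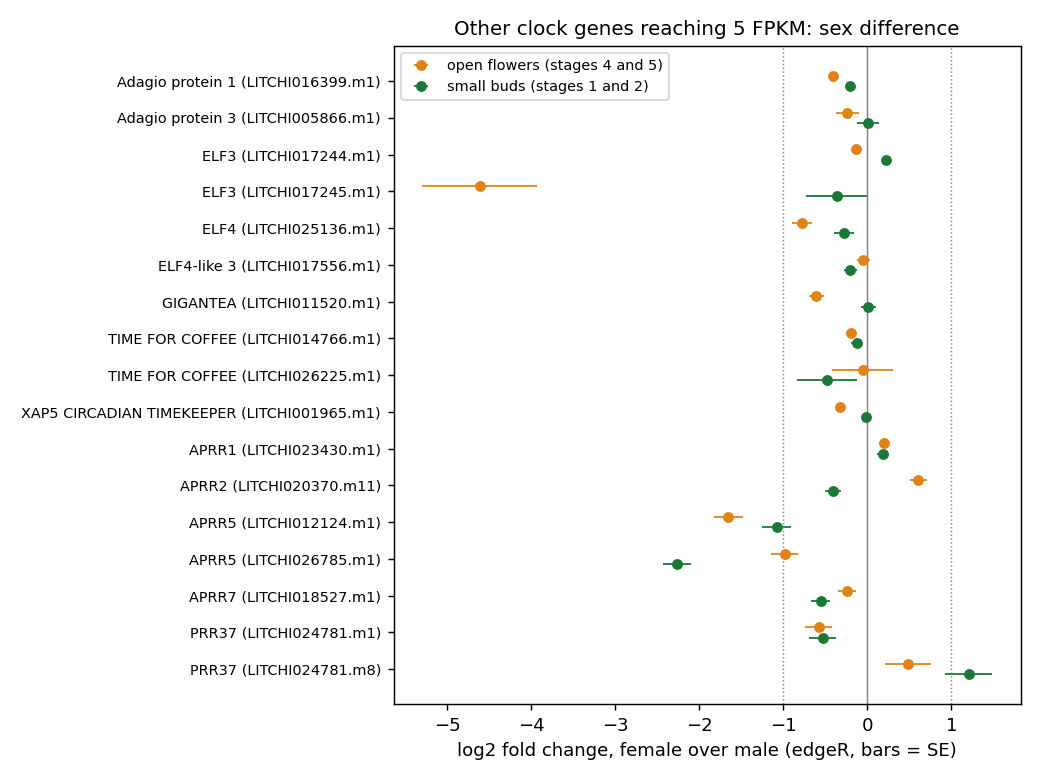
Female over male log2 fold change (x axis) of the other clock genes that reached 5 FPKM in some group (y axis), averaged over open flowers (orange) and over small buds (green), with approximate SE bars and dotted lines at a 2-fold change. The APRR5 entries (LITCHI026785.m1 and LITCHI012124.m1) lie left of the 2-fold line in small buds, at -2.27 and -1.08, and APRR1 (LITCHI023430.m1) lies at 0.18.

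Photoperiod outputs that cyclic DOF factors act on in Arabidopsis were taken as CONSTANS-like and FT-like names, 20 entries of which 18 were tested. In small buds 3 were called lower in female flowers and none higher, where 2 of the 3 were CONSTANS-LIKE 2 entries (LITCHI019307.m1 at log2 -1.36 ± 0.21, FDR 0.000111, and LITCHI019305.m1 at log2 -1.14 ± 0.20, FDR 0.000334). In open flowers 6 were called higher and 3 lower. LITCHI019307.m1 had log2 2.38 ± 0.24 there (FDR 6.36e-09), so its sex difference ran the other way from buds. LITCHI016333.m1 (CONSTANS-LIKE 5) was lower in both, at log2 -1.44 ± 0.10 in open flowers and -1.14 ± 0.10 in small buds (FDR 1.73e-11 and 9.32e-08). Of 21 other DOF factors tested, edgeR called none in small buds, with 11 at an unadjusted p under 0.05. At stage 1 and at stage 2 taken alone, 1 was called lower. In open flowers 10 were called higher and 1 lower. The 13 photoreceptor entries were taken by name and include phytochrome-associated proteins, such as an F-box protein (EID1) and a phosphatase (FYPP). Of these 13, edgeR called none in small buds, with 5 at an unadjusted p under 0.05, and 1 lower at stage 1 alone. In open flowers 2 were called higher. DESeq2 called 0 other DOF factors and 0 photoreceptor entries on the mean of stages 1 and 2. Of all entries, 1.09% were called lower in small buds and 10.8% in open flowers. The shares called higher are those of single stages, 9.55% at stage 4 and 17.6% at stage 5, and not of their mean.

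The entries most like LHY over the 30 libraries were found by Pearson's r with LITCHI026770.m2, as a description. The correlation was taken on log2 CPM (counts scaled to library size with TMM factors). Members reached 0.91 (LNK1), 0.90 (LNK3), 0.85 (LITCHI026770.m1), 0.82 (RVE8) and 0.78 (LITCHI022986.m1), and the lowest were -0.28 (LITCHI003303.m1) and 0.27 (LITCHI008053.m1). These values rest largely on the gap between the sexes. Within the 15 male libraries r with LHY was 0.62 for LNK1 but -0.42 for LNK3 and -0.22 for RVE8, and within the 15 female libraries it was 0.15, 0.40 and 0.40. Outside the members, LITCHI026769.m1 (ATG1a, a kinase that starts autophagy) was the most alike, at 0.96 over all libraries, 0.63 within female and 0.70 within male libraries. It averaged 4.35 to 6.03 FPKM in the female groups and 10.6 to 18.5 FPKM in the male groups. Its gene number precedes that of LHY by 1. Positions were not used here and the strand setting of the counts is unknown, so shared reads between the 2 could not be checked. The next were RAPTOR1 (LITCHI018061.m1, named Regulatory-associated protein of TOR 1) at 0.92, LITCHI016146.m1 (a BTB/POZ domain protein) at 0.91, LITCHI022672.m1 (the kinase SAPK3) at 0.90 and LITCHI012427.m1 (TAP46) at 0.89. Their gaps between the sexes in FPKM, which are not scaled by TMM, were far smaller than that of LHY. RAPTOR1 averaged 22.1 to 24.2 FPKM in the female and 22.1 to 27.5 in the male groups. For the BTB/POZ entry it was 16.2 to 19.1 and 20.5 to 26.1, for SAPK3 4.32 to 5.27 and 11.6 to 15.8, and for TAP46 35.6 to 44.8 and 52.3 to 57.5. In this order, r with LHY was 0.31, 0.13, 0.17 and 0.35 within female libraries and 0.32, 0.54, 0.60 and 0.16 within male libraries.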

How the data were processed

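RNA was sequenced from whole litchi flowers in 30 libraries. Per the labels, RNA was treated with DNase and paired-end libraries were prepared by NEBNext Ultra. The submitters' processing notes name HISAT2 2.0.4 and StringTie, and the study's methods name Trimmomatic, removal of ribosomal RNA and Cufflinks. Neither counting tool, strand setting nor genome build is named in the sources used. The authors deposited raw counts per entry and library, and FPKM made from uniquely mapped reads. Entries with like names may share reads. Adjusted p-values and log2 fold changes that the authors also deposited were not used.

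Counts were tested with edgeR 4.0.16 (R 4.3.3), with TMM scaling, filterByExpr at its defaults (27854 entries kept, 9380 removed) and 1 mean per group over all 30 libraries. Calls needed a Benjamini-Hochberg FDR under 0.01 over all entries tested and a 2-fold change, as in the study. Log2 fold changes are female over male, or later over earlier stage. SE are approximate, log2 fold change over root F. FPKM served for levels only. Totals had a median of 34876110 counts. Replicate spread and counting error were not separated. The fit was tested on simulated data.

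The members and lists were chosen with earlier results of these data known. Values by library were given for LHY and for members called between the sexes, and the 5 non-members most like LHY were named among entries with at least 10 CPM in some group (prior count 2). From each other list up to 2 called entries per direction could be named, and genes named beyond that (GIGANTEA, APRR1) were chosen after their values were seen. Alternatives were DESeq2 1.42.0, its size factors, no TMM, no filter, a stricter filter of 1 CPM, summed entries, a replicate block, only the groups compared, and each library left out. No sequence was used here.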

Additional observations from a re-analysis of the deposited data

Results flagged for a closer look

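A sex difference that changed between open flowers and small buds was called, by the test of the difference itself, for 3 of the 13 members, all positive. Of 25 other clock genes, 2 were called positive and 1 negative. Among all entries 13.1% were called positive and 7.68% negative. Such calls were common, so these counts are no result about either list. On the log2 scale, open flowers minus small buds, the change was 1.26 for LNK3 (LITCHI019895.m1), 1.14 for LNK1 (LITCHI001190.m1), 1.27 for REVEILLE 1 (LITCHI008053.m1), 1.28 for APRR5 (LITCHI026785.m1) and 1.01 for APRR2 (LITCHI020370.m11). For LNK3, LNK1 and APRR5 the female level stayed below the male level in both, at log2 -2.62, -1.23 and -0.98 in open flowers and -3.88, -2.36 and -2.27 in small buds. APRR2 had log2 0.61 in open flowers and -0.41 in small buds. For EARLY FLOWERING 3 (LITCHI017245.m1) the fitted value was -4.25, but all F4 libraries were listed at 0 and M4 averaged 0.137 FPKM, so this value depends on the fit and is no bound. REVEILLE 1 rests on wide groups, with 26.3, 12 and 8.34 FPKM in F5 and 35.4, 22.1 and 9.13 FPKM in M4.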

How the results depend on the processing

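LHY (LITCHI026770.m2) and LNK3 kept their direction and their calls at stages 1, 2, 4 and 5 under every alternative run. When only the groups compared were fitted, the count of members called was 2 in place of 8 for female against male at stage 2, 0 in place of 1 for stage 3 against 2 in female flowers and 0 in place of 2 for stage 5 against 4 in female flowers, each with fewer samples to estimate the spread. Scaling by library size without TMM gave 5 in place of 3 for stage 5 against 1 in male flowers and 2 in place of 1 for stage 3 against 2 in male flowers. Leaving out 1 library at a time gave 6 to 8 called members at stage 1, 6 to 8 at stage 2, 4 to 6 at stage 4, 5 to 8 at stage 5, 9 to 9 in small buds, 6 to 9 in open flowers and 1 to 3 in the interaction. Within female flowers it gave 1 to 2 (stage 5 against 1), 0 to 1 (2 against 1), 0 to 1 (3 against 2) and 2 to 3 (5 against 4). In male flowers these ranges were 2 to 3, 0 to 0, 0 to 1 and 1 to 4. Counts for stage 4 against 3 are left out, since the entries called there take in LNK entries, whose values at this step carry no test. The entries called for stage 3 against 2 were all REVEILLE or cyclic DOF entries. The first F5 library gave the 8 at stage 5 and the 9 in open flowers, and the third F2 library the 1 in the interaction.

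Without TMM factors, the female to male log2 value turned positive for LITCHI008053.m1 in open flowers (0.31), LITCHI003303.m1 at stage 4 (0.14), stage 5 (0.44) and in open flowers (0.29), LITCHI005188.m1 at stage 5 (0.21), and LITCHI019522.m1 at stage 5 (0.41) and in open flowers (0.032). With only the groups compared it was 0.0091 for LITCHI008053.m1 in open flowers, 0.044 for LITCHI003303.m1 and 0.019 for LITCHI019522.m1 at stage 5. None of these was called in the first place. Calls between the sexes lost without TMM were RVE8 at stage 5 (-0.76) and, in open flowers, LNK1 (-0.87) and LITCHI005188.m1 (-0.88). Within male flowers LITCHI023451.m1 at stage 5 against 4 was lost without TMM (0.83), and LITCHI019522.m1 at stage 5 against 1 with the DESeq2 test and with its size factors in edgeR (-0.99 each). Leaving out 1 library at a time, the interaction ran from -0.068 to 0.35 for LITCHI026770.m2, -0.20 to 1.64 for LITCHI026770.m1 and -0.14 to 0.28 for LITCHI023451.m1. Female against male ran from -0.64 to 0.22 (stage 4), -0.50 to 0.50 (stage 5) and -0.37 to 0.18 (open flowers) for LITCHI008053.m1, from -0.33 to 0.029 for REVEILLE 6 at stage 2, from -0.24 to 0.050 (stage 4), -0.16 to 0.084 (stage 5) and -0.15 to 0.0036 (open flowers) for LITCHI003303.m1, and from -0.22 to 0.12 for LITCHI019522.m1 at stage 5. REVEILLE 3 at stage 5 crossed the 2-fold limit with the DESeq2 test and its size factors (-1.04 each), with the stricter filter and summed entries (-1.01 each), and in 22 of 30 fits that left out 1 library (range -1.26 to -0.85). The cause was not tested.

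The replicate numbers share only a number: deviations of same-numbered libraries of the sexes correlated at -0.049 to 0.035 (15 pairs) and others at -0.042 to 0.043 (30 pairs). With a replicate block the counts were 7, 8, 5 and 6 at stages 1, 2, 4 and 5, where the added call at stages 4 and 5 was LITCHI026770.m1 (-3.69 and -3.02).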

Other observations

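Among the 3 libraries of a group, several members stood in the same order. In M4, 8 of 13 members were highest in the first library and lowest in the third, an order that 27.5% of all entries tested had, and LITCHI023451.m1 (Cyclic dof factor 3) was lowest in the first and highest in the third (45.5, 55 and 72.4 FPKM). In F4, 12 of 13 members were lowest in the first library, as were 36.9% of entries. In F5, 8 of 13 ran from highest to lowest over the first, the second and the third library, as did 24.7% of entries, while the LHY entries were highest in the second (8.33 and 1.12 FPKM). This pattern was noticed in the values and carries no test.

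CONSTANS-LIKE 2 (LITCHI019307.m1) averaged 5.28 ± 0.46 FPKM in F1 and 15 ± 1.6 in M1, and 2.31 ± 0.25 in F5 and 0.125 ± 0.020 in M5 (SD, n = 3).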
